A study of Mus musculus and Homo sapiens with 12 samples.

Results

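The nuclear-encoded subunits of the mitochondrial respiratory chain were followed across loss of the RNA helicase DDX21 in mouse and in human blood progenitors. Members were chosen by symbol, as every gene named like a subunit of NADH dehydrogenase, succinate dehydrogenase, the cytochrome bc1 complex, cytochrome c oxidase or ATP synthase, plus cytochrome c, with assembly factors left out. The rule matched 89 symbols, of which 85 are subunit genes, 36 in complex I, 4 in complex II, 11 in complex III with cytochrome c, 16 in complex IV and 18 in complex V. The other 4 matches, the pseudogenes Ndufa12-ps, COX6CP14 and NDUFB8P2 and the antisense RNA NDUFV2-AS1, were kept apart, and none of them was called. Of the subunit genes, 84 were measured in the mouse and 82 in the human cells, and 81 in both. All of these passed the filter on low counts, among 14918 genes tested in the mouse and 20188 in the human cells.

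The mouse libraries came from LK cells, which lack markers of mature blood lineages and carry the receptor Kit, sorted from E13.5 fetal liver. The 3 WT libraries were from Ddx21f/f animals, so that both WT and cKO carried the loxP-flanked alleles, and the 3 cKO libraries were from animals of genotype Vav-Cre; Ddx21f/f, in which Cre is driven by the blood-cell promoter Vav. The human libraries came from cells that had been differentiated from the H1 embryonic stem cell line towards blood stem cells, infected with a lentivirus carrying mCherry and a control hairpin (shNC, 3 libraries) or a hairpin against DDX21 (shDDX21, 3 libraries), and collected 2 days after transduction by a live-cell gate for the vector and the surface proteins CD34, CD43 and CD45. All human libraries thus share 1 cell line, and no second hairpin was analysed here. Separate litters, animals or cultures are not named for the replicates, so p-values measure only the spread between these libraries, which may be technical.

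The libraries held 21116079 to 23898130 counts in the mouse and 15289510 to 19798608 in the human experiment. Levels are given as CPM, counts scaled to a common library size with TMM factors. The fitted spread between libraries (biological coefficient of variation) was 10.5% in the mouse and 2.23% in the human experiment. Mouse Ddx21 fell to 19.7% of its WT level and human DDX21 to 14.5% of its control level. Kit stood at 359 to 368 CPM in the WT and 312 to 322 CPM in the cKO libraries, and CD34 at 245 to 251 CPM with shNC and 296 to 299 CPM with shDDX21. Of the 11 stem and progenitor markers tested in the mouse, Kit among them, 6 were called higher and 3 lower. Their summed level was 1383 to 1415 CPM in WT and 1484 to 1502 CPM in cKO. Of the 9 tested in the human cells, 6 were called higher and 3 lower. Markers of several other cell types moved with the groups. Of all genes tested, 20.7% were called higher and 15.8% lower in the mouse, and 25.3% and 27.4% in the human cells. In the mouse, the summed level of the hepatocyte markers was 14.8 to 16.8 CPM in WT and 51.6 to 55.8 CPM in cKO. Of 15 found, 8 passed the filter on low counts and all 8 were called higher, with Alb rising from 0.417 to 12.1 CPM. A marker near silence in WT could pass through cKO alone, so this count is in part set by the filter. With at least 10 counts required in every library, 3 were tested and called higher, with a median log2 fold change of 0.81 against 3.70. Of the granulocyte and monocyte markers, 9 of 10 were called lower and 1 higher, and of 13 erythroid markers 4 were called higher and 5 lower. In the human cells 6 of 7 granulocyte and monocyte markers were called lower and 1 higher. Of 12 human erythroid markers 8 were called higher and 2 lower, and of 10 endothelial markers 4 were called higher and 5 lower. Among the other lists, 5 of 8 megakaryocyte and 5 of 9 endothelial markers rose in the mouse, and 4 of 5 macrophage markers fell in the human cells, where their sum was 129 to 140 CPM with shNC and 76.1 to 82.1 CPM with shDDX21. The part of these shifts in cell content in the results below was not tested, and fewer cells of a type cannot be told apart from less RNA per cell in such bulk samples.

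The respiratory chain passes electrons from NADH (complex I) and succinate (complex II) through ubiquinone to complex III, by cytochrome c to complex IV and onto oxygen, and the proton gradient this builds drives ATP synthesis in complex V. Most subunits are made from nuclear genes and imported, but the hydrophobic cores of complexes I, III, IV and V include subunits made inside the organelle from mitochondrial DNA, and both sets must be put together. Blood stem and progenitor cells are known for shifting between glycolysis and respiration as they proliferate and mature, and nuclear subunit genes are known targets of the transcription factors NRF1, GABP and YY1.

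Promoter windows of RefSeq (GRCm38.p6, 250 bases before to 50 after the annotated start) were matched to 68 of the 84 mouse members. The letters GCGC, any 1 base and TGCGC in a row, a form of the NRF1 site, were found on either strand in 18 of them (26.5%), against 5.19% of the windows of 27025 genes. CCGGAAG, the core bound by GABP, was found in 16 (23.5%, against 9.93%), and AANATGGCG, a form of the YY1 site, in 11 (16.2%, against 2.76%). The hypoxia-response letters NACGTGC were found in 4 (5.88%, against 6.67%). A match describes the letters only. Of the mouse members called in the comparison below, Sdhd and Atp5if1 carried the NRF1 letters and Sdhd and Ndufs3 the GABP letters, while Atp5if1 and Ndufs4 carried the YY1 letters and Ndufa1 the hypoxia-response letters. Of the 18 members with the NRF1 letters 2 were called, and of the 50 without them 7 were. Shown are the stretches just before the start of the member that fell in both species, the member called in opposite directions and the member with the largest rise, because the results turn on these 3 genes. Capitals mark the only motif match within them.

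Sdhd (GRCm38.p6, chr9:50603850-50603900, minus strand): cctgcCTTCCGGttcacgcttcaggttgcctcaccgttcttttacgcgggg
Cox7a2l (GRCm38.p6, chr17:83514334-83514483, minus strand): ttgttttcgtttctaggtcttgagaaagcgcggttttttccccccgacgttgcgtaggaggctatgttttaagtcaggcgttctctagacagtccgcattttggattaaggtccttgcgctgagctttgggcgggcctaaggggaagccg
Cox6b2 (GRCm38.p6, chr7:4753095-4753225, minus strand): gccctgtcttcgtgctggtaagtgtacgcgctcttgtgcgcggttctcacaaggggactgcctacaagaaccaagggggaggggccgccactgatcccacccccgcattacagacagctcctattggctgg

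The Sdhd stretch is all 51 bases between its RefSeq start and that of Timm8b on the opposite strand, and it holds the GABP letters in reverse. The NRF1 letters of Sdhd begin at base -79 relative to its start, beyond the start of Timm8b and outside the stretch shown. The Cox7a2l stretch lies before its RefSeq start but inside the span deposited for the gene, whose first base is farther upstream (83517330). In that stretch (150 bases) and the Cox6b2 stretch (131 bases, ending where the exon of the upstream gene Fam71e2 begins) none of the 4 motifs was found.

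In the mouse LK cells the number of subunit genes called depended on which libraries were fitted. With all 6 libraries, of 84 members, 11 passed edgeR's quasi-likelihood test at a Benjamini-Hochberg adjusted p below 0.05 and were called (13.1%, against 36.5% of all genes tested). Of these, 4 were higher in cKO (4.76%, against 20.7%) and 7 were lower (8.33%, against 15.8%). The median log2 fold change of the members was -0.12, against 0.00 over all genes tested, and 59 of the 84 lay below 0. All 3 cKO libraries were above all 3 WT libraries for 6 members (27.6% of all genes did so) and below them for 14 (21.4%). With total counts in place of scaling factors the calls split into 5 higher and 5 lower. Without WT replicate 3 and cKO replicate 2, a choice made after seeing the data, 32 members were called (38.1%, against 38.9% of all genes). Without cKO replicate 1 alone 29 were (34.5%, against 37.2%), so the low share in the fit of all libraries did not hold there. It did hold without WT replicate 1, WT replicate 2, cKO replicate 2 or cKO replicate 3, at 8.33% to 9.52% against 24.2% to 31%. The share was 17.9% against 30.1% with DESeq2, 32.1% against 47.5% with an offset for GC content, and 20.2% against 19.2% with no filter.

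**Figure D1:**
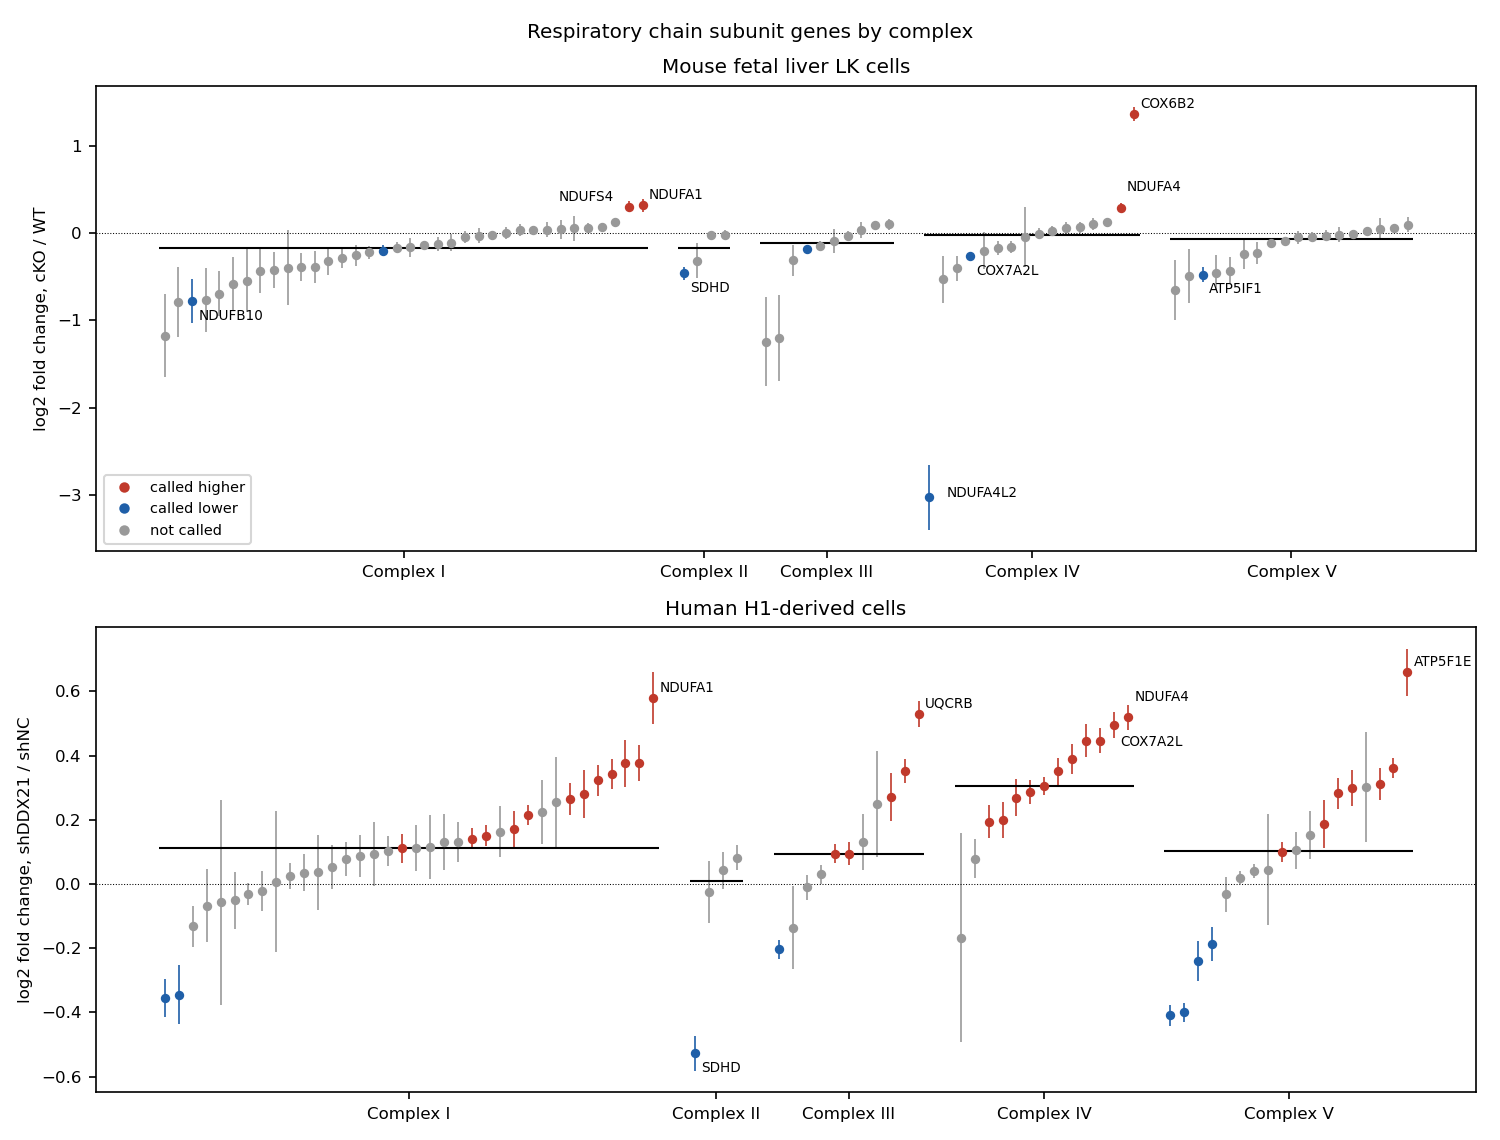
Log2 fold change of each subunit gene on perturbation of DDX21, ordered within its complex, for the mouse (top, cKO over WT) and the human cells (bottom, shDDX21 over shNC). Bars are the standard error, black lines the median of the complex, and colour the call at adjusted p under 0.05; the vertical scales differ. Most mouse members lie at or under 0, with Cox6b2 at 1.36 and Ndufa4l2 at -3.02, and human complex IV has 11 of 13 genes called higher.

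Both mouse members with the largest changes were alternative isoforms of a complex IV subunit. Cox6b2 (ENSMUSG00000051811; GRCm38 chromosome 7, 4751792 to 4753094, minus strand) is known as the testis form of COX6B, which helps join the oxidase into a dimer. It stood at 31.9, 31.9 and 31.8 CPM in the WT and 90.3, 73.1 and 81.9 CPM in the cKO libraries. The 3 WT values nearly coincide and every cKO library lay far above them, so that its log2 fold change reached 1.36 with an SE of 0.080 (adjusted p = 2.4e-05). Cox6b1, its common counterpart, was at 101 ± 3.15 CPM (SD, n = 3) in WT and 103 ± 6.24 CPM in cKO and was not called (log2 fold change 0.03, adjusted p = 0.724). Per kilobase of exon, Cox6b2 made up 16.8% ± 0.452 (SD, n = 3) of the summed level of both genes in WT and 33.8% ± 3.70 in cKO. Fam71e2, the gene just upstream on the same strand, had at most 0.0928 CPM in any library.

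Ndufa4l2 (ENSMUSG00000040280; chromosome 10, 127514967 to 127517154, plus strand), a paralog of the complex IV subunit gene Ndufa4 that is known to be induced by hypoxia, was scarce. Its level was 3.63, 2.43 and 1.72 CPM in WT and 0.261, 0.324 and 0.363 CPM in cKO. The groups do not overlap, and the highest cKO value was well under the lowest WT value (log2 fold change -3.02, SE 0.373, adjusted p = 0.000804). A gene so scarce in cKO could pass the filter on low counts through WT alone. Ndufa4l2 was not tested with at least 10 counts required in every library, and was called lower in the 15 other alternative fits. The end of its span overlaps the end of Shmt2, which codes for a mitochondrial serine enzyme, on the opposite strand, and Shmt2 was also called lower (log2 fold change -0.89, adjusted p = 0.0437). Shmt2 was at 430, 393 and 245 CPM in WT and 264, 134 and 180 CPM in cKO, where WT replicate 3 lay within the cKO range. Whether counting used strand is not given in the sources used here, and reads in the overlap cannot be told apart without it. Overlaps of this kind are common, since 39 of the 84 mouse and 56 of the 82 human members share positions with at least 1 other annotated gene. Ndufa4 itself rose, from 92.2, 86.5 and 94.3 CPM to 105, 115 and 114 CPM, without overlap (log2 fold change 0.29, SE 0.054, adjusted p = 0.00555).

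In the COX4, COX7A1 and c-ring isoform sets no mouse gene was called, and Cox7a2l is described below. Cox4i2, the lung and hypoxia form of COX4, had 1.62, 1.61 and 1.39 CPM in WT and 1.70, 1.05 and 1.27 CPM in cKO, which overlap. It made up 0.994% ± 0.0598 (SD, n = 3) of the COX4 level per kilobase in WT and 0.824% ± 0.149 in cKO. Cox7a1, the heart and muscle form, made up 1.39% ± 0.0801 of the sum of Cox7a1 and Cox7a2 in WT and 1.32% ± 0.471 in cKO. Atp5mc1, Atp5mc2 and Atp5mc3 code for the same mature c-ring protein of ATP synthase. Of their summed level Atp5mc2 made up 22.4% ± 1.57 in WT and 21.2% ± 4.40 in cKO. Atp5mc3 was at 241, 226 and 167 CPM in WT and 183, 138 and 150 CPM in cKO, where WT replicate 3 lay within the cKO range (log2 fold change -0.43, adjusted p = 0.0646). It was not called here, but it was called lower in 10 of 16 alternative fits.

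Complex II had 1 called gene, Sdhd (ENSMUSG00000000171; chromosome 9, 50596357 to 50603812, minus strand), which codes for a membrane anchor of succinate dehydrogenase that binds ubiquinone. It stood at 311, 310 and 305 CPM in WT and 245, 199 and 228 CPM in cKO. The WT libraries lie close together and all cKO libraries are below them, with cKO replicate 2 lowest. The cKO mean was 72.6% of the WT mean (log2 fold change -0.46, SE 0.072, adjusted p = 0.00243). The catalytic flavoprotein gene Sdha, with 510 ± 7.14 CPM (SD, n = 3) in WT and 502 ± 14.9 CPM in cKO, was not called, nor were Sdhb and the other anchor gene Sdhc. Timm8b, an import chaperone gene that starts 97 bases from Sdhd on the other strand in the deposited positions, had 34.6 ± 0.967 CPM in WT and 28.7 ± 1.36 CPM in cKO, and it too was called lower (log2 fold change -0.27, SE 0.063, adjusted p = 0.0137).

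Complex V also had 1 called mouse gene among its 18. Atp5if1 codes for the inhibitor that binds ATP synthase and keeps it from running in reverse when the gradient fails. It fell from 137, 133 and 123 CPM to 104, 81.7 and 97.7 CPM, with no overlap and cKO replicate 2 lowest (log2 fold change -0.47, SE 0.091, adjusted p = 0.00603). The catalytic beta subunit gene Atp5f1b, with 393 ± 6.37 CPM per kilobase in WT the highest level per length of complex V, was at 1646, 1651 and 1695 CPM in WT and 1683, 1791 and 1712 CPM in cKO. Those groups overlap, and the gene was not called (log2 fold change 0.05, SE 0.038, adjusted p = 0.286).

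Cox7a2l, a COX7A relative known for joining complexes III and IV into supercomplexes, was called lower in the mouse. It stood at 99.4, 99.1 and 98.3 CPM in WT and 86.2, 75.6 and 84.7 CPM in cKO. The WT values span about 1 CPM and every cKO value lies below them (log2 fold change -0.27, SE 0.057, adjusted p = 0.00933). Cyc1, the heme-bearing cytochrome c1 of complex III, fell from 171, 166 and 153 CPM to 150, 142 and 140 CPM. The groups do not overlap but the gap is small, with WT replicate 3 close to cKO replicate 1 (log2 fold change -0.18, SE 0.052, adjusted p = 0.029). The call of Cyc1 was lost with an offset for GC content, at a log2 fold change of 0.12 (adjusted p = 0.541), with total counts, and without WT replicate 1, WT replicate 2, cKO replicate 2 or cKO replicate 3.

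Complex I had 4 called genes of 36 in the mouse. Ndufa1, a small X-linked membrane subunit, stood at 13.6, 12.6 and 13.0 CPM in WT and 16.7, 16.5 and 15.5 CPM in cKO, without overlap (log2 fold change 0.32, SE 0.076, adjusted p = 0.016). Its call was lost under DESeq2 and without WT replicate 2, with adjusted p values up to 0.0698. Ndufs4, an accessory subunit beside the NADH-oxidising arm whose loss is known to cause Leigh syndrome, rose from 41.6, 37.8 and 37.2 CPM to 46.6, 49.2 and 47.5 CPM, again without overlap (log2 fold change 0.30, SE 0.063, adjusted p = 0.00914). Ndufs3, a core subunit of the peripheral arm, fell from 53.7, 52.6 and 48.1 CPM to 46.6, 43.4 and 44.4 CPM (log2 fold change -0.20, SE 0.062, adjusted p = 0.0399). The call of Ndufs3 was lost in 10 of 16 alternative fits, among them those without WT replicate 1, WT replicate 2, cKO replicate 2 or cKO replicate 3, with adjusted p values up to 0.133.

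Ndufb10, a membrane-arm subunit with cysteines that form disulfides, had the largest called decrease of complex I. It stood at 95.0, 87.5 and 52.7 CPM in WT and 59.1, 35.7 and 42.3 CPM in cKO. WT replicate 3 was far below the other WT libraries and under cKO replicate 1, so the groups overlap (log2 fold change -0.78, SE 0.254, adjusted p = 0.0475). The call was lost in 5 of 16 alternative fits, namely under a filter of 10 counts per library and without WT replicate 1, WT replicate 2, cKO replicate 2 or cKO replicate 3, with an adjusted p of up to 0.148.

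**Figure D2:**
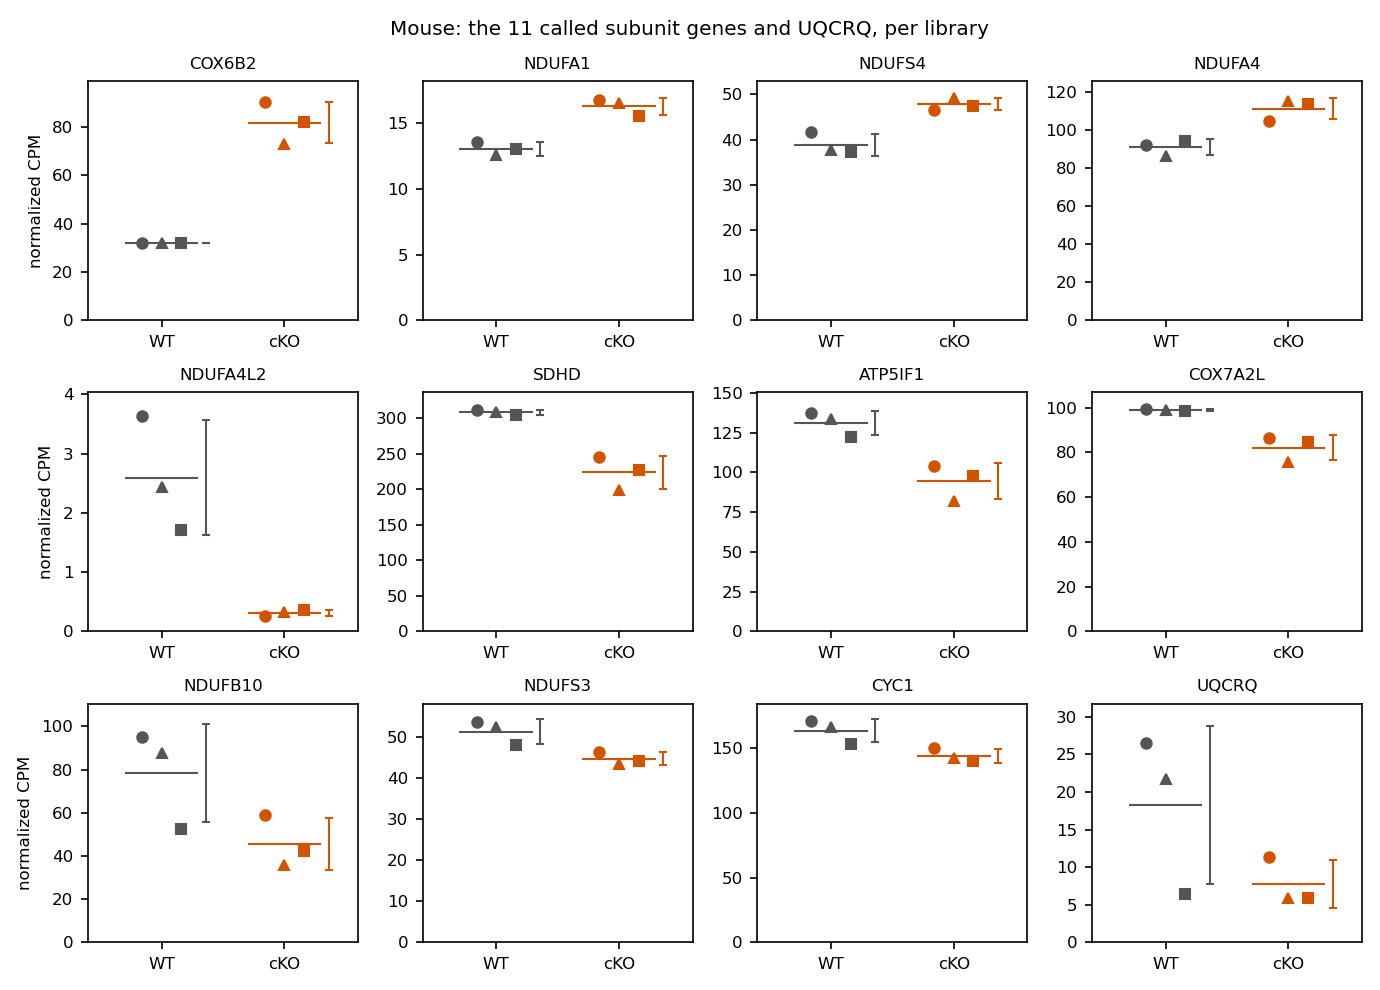
TMM-normalized CPM (vertical axis, from 0) of the 11 called mouse members and of Uqcrq in each library of WT (grey) and cKO (orange); circles, triangles and squares are replicates 1, 2 and 3, lines the means and bars the SD (n = 3). Cox6b2 separates the groups most clearly upward, and in Ndufb10 and Uqcrq the WT square lies among the cKO values.

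In many mouse members 2 libraries were the lowest of their group. WT replicate 3 was below both other WT libraries for 55 of 84 members, cKO replicate 2 was below both other cKO libraries for 44, and both held for 42. Steep but uncalled fold changes of small or core subunits show a wide spread in both groups. Uqcrq, a small subunit of complex III, was at 26.6, 21.8 and 6.45 CPM in WT and 11.4, 5.88 and 5.90 CPM in cKO (log2 fold change -1.24, adjusted p = 0.0946). Uqcr11, another small complex III subunit, was at 42.5, 35.7 and 14.5 CPM in WT and 22.4, 7.78 and 10.2 CPM in cKO (log2 fold change -1.20, adjusted p = 0.0933). Ndufs7, which carries the iron-sulfur cluster that hands electrons to ubiquinone, was at 38.6, 33.1 and 12.9 CPM in WT and 19.4, 6.81 and 11.4 CPM in cKO (log2 fold change -1.17, adjusted p = 0.0931). In all of them WT replicate 3 reached down into the cKO range, and cKO replicate 1 stood well above the other cKO libraries.

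The deviation of WT replicate 3 and cKO replicate 2 followed base composition. Across the 84 members, Spearman's rho between the GC content of a gene's GENCODE M21 transcripts and the deviation of WT replicate 3 from the other WT libraries was -0.56, and for cKO replicate 2 it was -0.52. Across 14898 genes the values were -0.49 and -0.56. These describe genes that share their libraries and are not independent. The 19 members with a GC content of 55% or more had a median log2 fold change of -0.40, which became -0.20 with an offset for GC, and the other 65 had -0.05, which became -0.10. With the GC offset, chosen after seeing the data, 22 members were called lower and 5 higher (24% and 23.4% of all genes), and 6 of the 7 genes called lower in the unadjusted fit were among them. Without WT replicate 3 and cKO replicate 2, also chosen after seeing the data, 27 were called lower and 5 higher (19% and 19.8% of all genes), and all 7 were among them. In both of these fits 16 members were called lower. Leaving out cKO replicate 1 alone gave 25 lower calls and leaving out WT replicate 3 alone gave 19, whereas leaving out any of the other 4 libraries gave 4. What set the deviation of these libraries was not tested.

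**Figure D3:**
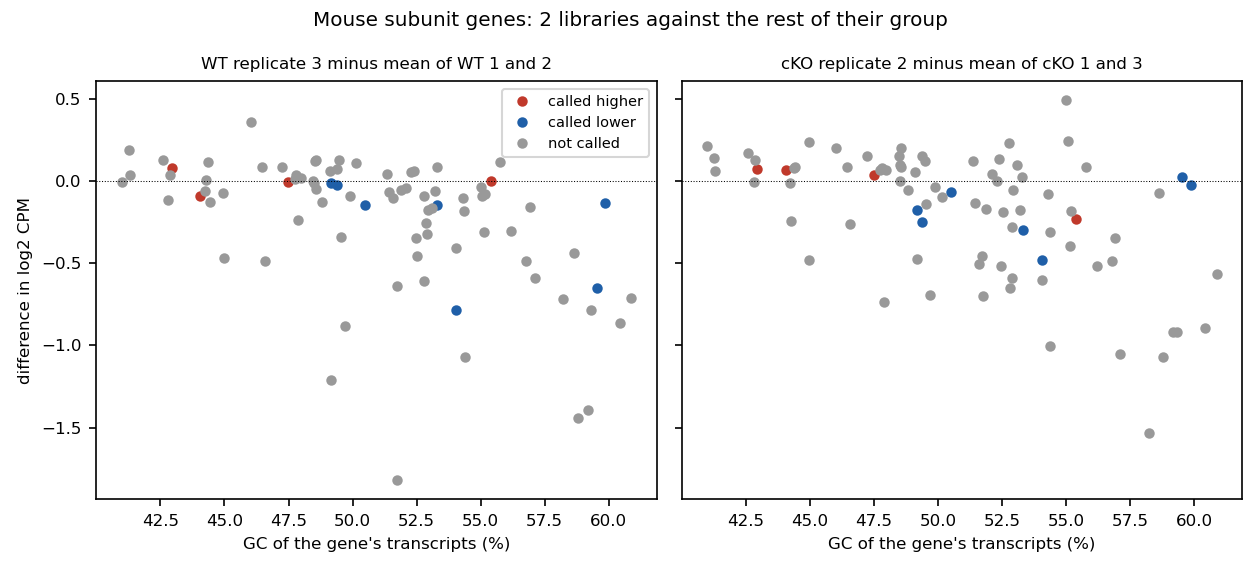
Difference in log2 CPM between WT replicate 3 and the mean of WT replicates 1 and 2 (left) and between cKO replicate 2 and the mean of cKO replicates 1 and 3 (right), for each mouse subunit gene, against the GC content of its transcripts in percent. Colour is the call; rank correlations are -0.56 and -0.52 over 84 genes, with the lowest values among genes of high GC content.

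In the human cells the subunit genes changed as often as other genes but mostly upward. Of 82 members, 43 were called (52.4%, against 52.7% of all genes tested), 35 higher with shDDX21 (42.7%, against 25.3%) and 8 lower (9.76%, against 27.4%). The median log2 fold change was 0.11, against 0.01 over all genes, and 63 members lay above 0. The 3 shDDX21 libraries were above all controls for 38 members (27.9% of all genes did so) and below them for 7 (29.5%). The median log2 level of the members over the control mean was 0.14, 0.12 and 0.07 in the shDDX21 libraries and -0.03, 0.04 and -0.01 in the controls. All called changes were under 2-fold. With upper-quartile factors, which also raise the median of all genes to 0.07, 53 members were called higher and 7 lower. GC content was not computed for the human genes, as no human annotation was used here.

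Complex IV rose most evenly. Of its 13 human genes, 11 were called higher and none lower, the median log2 fold change was 0.30, and the count stayed between 9 and 12 with none lower in the other 14 fits. The summed level was 790, 806 and 801 CPM with shNC and 1059, 1021 and 975 CPM with shDDX21. NDUFA4, formerly counted in complex I, went from 79.1, 75.5 and 77.4 CPM to 119, 106 and 107 CPM, without overlap (log2 fold change 0.52, SE 0.038, adjusted p = 8.39e-20). COX7A2L went from 61.2, 58.1 and 56.9 CPM to 83.9, 83.2 and 81.6 CPM, again without overlap (log2 fold change 0.50, SE 0.041, adjusted p = 1.95e-17). COX4I1, which binds ATP and tunes the enzyme, went from 172, 173 and 165 CPM to 213, 207 and 209 CPM (log2 fold change 0.30, SE 0.028, adjusted p = 2.02e-15). COX5B and COX7C both rose by a log2 fold change of 0.45, COX6B1 by 0.39 and COX7A2 by 0.35. The uncalled genes were COX7B (0.08) and the muscle form COX7A1, which was at 0.718 to 1.80 CPM with shNC and 0.968 to 1.13 CPM with shDDX21.

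Complex V moved in both directions, with 7 of 18 genes higher and 4 lower (11 and 3 with upper-quartile factors). ATP5F1E, the small epsilon subunit of the central stalk, had the largest rise of all human members. It stood at 18.3, 18.8 and 17.9 CPM with shNC and 33.0, 26.9 and 26.6 CPM with shDDX21, well apart, with shDDX21 replicate 1 highest (log2 fold change 0.66, SE 0.074, adjusted p = 4.23e-12). Its positions overlap those of TUBB1, a platelet tubulin gene on the opposite strand, which rose as well, from 51.7 ± 0.855 to 62.5 ± 0.615 CPM (SD, n = 3). ATP5MC2 rose from 140 ± 5.20 to 179 ± 5.93 CPM (log2 fold change 0.36) and ATP5MC1 was not called (-0.03), and the share of ATP5MC2 in the c-subunit trio per kilobase was 40.1% ± 0.917 with shNC and 45.2% ± 0.455 with shDDX21.

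The 4 genes that fell in complex V were ATP5F1C, ATP5PB, ATP5PF and ATP5F1D, all coding for stalk subunits, while the stalk genes ATP5F1E (above), ATP5PD (0.28) and ATP5PO (0.19) rose. ATP5F1C, the rotating gamma subunit, went from 133, 139 and 134 CPM to 104, 99.3 and 102 CPM, without overlap (log2 fold change -0.41, SE 0.033, adjusted p = 7.24e-18). ATP5PB, the b subunit of the peripheral stalk, went from 196, 187 and 183 CPM to 140, 142 and 147 CPM, also without overlap (log2 fold change -0.40, SE 0.030, adjusted p = 2.02e-19). ATP5PF of the same stalk fell by 0.24 on the log2 scale and ATP5F1D of the central stalk by 0.19, and for the latter the groups touch, with a lowest control of 45.1 CPM and a highest shDDX21 library of 45.6 CPM. The catalytic ATP5F1B was at 961 ± 23.5 CPM (SD, n = 3) with shNC and 974 ± 13.1 CPM with shDDX21 and was not called.

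SDHD was again the called gene of complex II. It went from 45.5, 46.3 and 49.6 CPM to 32.7, 34.9 and 30.5 CPM, 69.4% of the control mean and without overlap (log2 fold change -0.53, SE 0.056, adjusted p = 3.27e-13). SDHA, SDHB and SDHC were not called, at log2 fold changes of -0.02, 0.04 and 0.08. TIMM8B, the facing gene, rose here, from 22.7 ± 0.987 to 28.2 ± 0.532 CPM (log2 fold change 0.31, SE 0.067, adjusted p = 4.38e-05), so that the 2 neighbours moved apart in the human and down together in the mouse cells.

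In complex III, 5 human genes were called higher and 1 lower, with 3 higher without shNC replicate 3 or shDDX21 replicate 2 and with total counts. UQCRB, which lies at a ubiquinone site, went from 83.3, 92.9 and 83.3 CPM to 131, 129 and 114 CPM, without overlap (log2 fold change 0.53, SE 0.039, adjusted p = 9.22e-20). UQCRH, the hinge protein that helps bind cytochrome c, rose from 116 ± 4.34 to 148 ± 13.9 CPM (log2 fold change 0.35). CYCS, cytochrome c itself, which also starts the apoptosome, was the gene that fell, from 169, 164 and 170 CPM to 144, 148 and 146 CPM (log2 fold change -0.20, SE 0.030, adjusted p = 1.46e-08). CYC1 was not called (-0.01).

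In complex I, 12 of 36 human genes were called higher and 2 lower (22 and 2 with upper-quartile factors). NDUFA1 rose from 14.6, 14.0 and 13.4 CPM to 21.8, 21.4 and 19.6 CPM, without overlap (log2 fold change 0.58, SE 0.081, adjusted p = 3.77e-09). NDUFB5 of the membrane arm rose from 31.7 ± 1.41 to 41.2 ± 0.841 CPM (log2 fold change 0.38) and NDUFV1, which binds NADH, from 122 ± 0.714 to 142 ± 1.27 CPM (0.21). The genes that fell were NDUFS6, a zinc-binding accessory subunit of the NADH-oxidising arm, from 34.8, 36.9 and 35.3 CPM to 28.1, 27.8 and 27.7 CPM (log2 fold change -0.35, SE 0.060, adjusted p = 4.81e-07), and NDUFA6, from 16.2 ± 1.52 to 12.7 ± 1.26 CPM (-0.35, adjusted p = 0.000912).

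**Figure D4:**
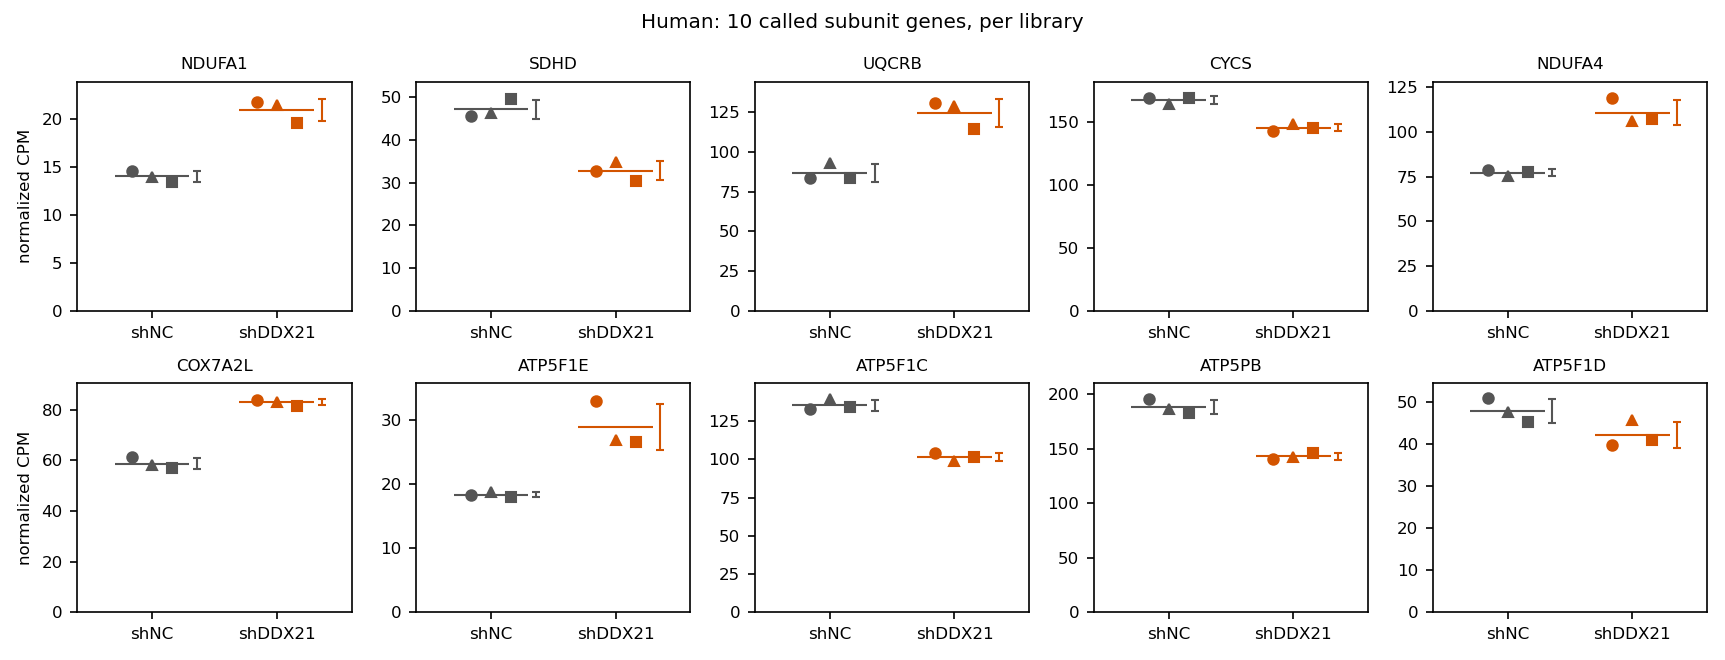
TMM-normalized CPM (vertical axis, from 0) of 10 called human members in each library of shNC (grey) and shDDX21 (orange); circles, triangles and squares are replicates 1, 2 and 3, lines the means and bars the SD (n = 3). The groups are apart for every gene but ATP5F1D, whose highest shDDX21 library lies above its lowest control.

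The mitochondrially encoded partners were read from the same libraries. In the human cells 13 of 13 genes of mitochondrial DNA were called higher (25.3% of all genes were), in each of the 14 alternative fits as well. Their median log2 fold change was 0.42, and 0.30 with an offset for gene length. Their sum was 57276, 59194 and 57575 CPM with shNC and 77046, 76415 and 75464 CPM with shDDX21. COX1, the catalytic subunit of complex IV, rose from 14715, 15079 and 14546 CPM to 19967, 19667 and 19749 CPM (log2 fold change 0.42, SE 0.015). In the mouse 3 of 13 were called lower and none higher (15.8% and 20.7% of all genes), with a median of -0.03. These were ND1, ND2 and ND3 of complex I, at log2 fold changes of -0.23, -0.21 and -0.45 (1 of 13 was called lower with total counts), while COX1 was at 7323, 7325 and 7759 CPM in WT and 7527, 8286 and 7752 CPM in cKO. Of the 12 that were matched by symbol, 10 had a called difference between the experiments, all with the mouse effect below the human one, by -0.35 for COX1 (SE 0.051, adjusted p = 0.000124) and by -1.04 for ND3 (SE 0.120, adjusted p = 1.81e-05) in the interaction test described below (56.2% of all genes matched had a called difference). Mouse COX2 was at only 5.88 to 7.62 CPM in the 6 libraries, and how reads shared with nuclear copies of mitochondrial DNA were counted is not given in the sources used here.

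The effects on the members were compared directly by an interaction term in a fit of all 12 libraries, over 10313 genes matched by symbol. The difference was called for 35 of 81 members (43.2%, against 56.2% of all genes matched; 24 to 46 members when 1 library was left out), with the mouse effect below the human for 32 (35.9% of all genes had it above and 20.4% below) and above it for 3, ATP5F1C, ATP5PB and CYCS. By complex these were 13 of 36 members of complex I, 0 of 4 of complex II, 5 of 10 of complex III, 9 of 13 of complex IV and 8 of 18 of complex V. For 40 members the fold change was below 0 in the mouse and above 0 in the human cells. No offset for GC content was applied in the interaction fit. These differences are thus not adjusted for the deviation of WT replicate 3 and cKO replicate 2. Species, cell source, knockout against knockdown and time since loss all differ between the experiments and cannot be told apart.

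Calls were shared for few members. In both experiments 3 were called in the same direction (16.8% of all genes matched) and 1 in opposite directions (12.8%), with 5 called in the mouse alone, 39 in the human cells alone and 33 in neither. The share over the matched genes was not computed for calls in 1 experiment alone or in neither. Of all genes tested, 36.5% were called in the mouse and 52.7% in the human cells. SDHD fell in both, and the difference between its effects was 0.06 (SE 0.102, adjusted p = 0.608). NDUFA1 and NDUFA4 rose in both, and both rose more in the human cells, by 0.26 (adjusted p = 0.0358) and 0.23 (adjusted p = 0.0233) on the log2 scale. COX7A2L was the gene called in opposite directions, at -0.27 in the mouse and 0.50 in the human cells. The difference of -0.76 (SE 0.070, adjusted p = 2.67e-06) is several times its error. Human COX7A2L shares positions with 1 other annotated gene on the same strand, while mouse Cox7a2l shares none. How reads shared between genes were counted is not given in the sources used here. Cox6b2 and Ndufa4l2, with the largest mouse changes, were not among the matched genes.

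**Figure D5:**
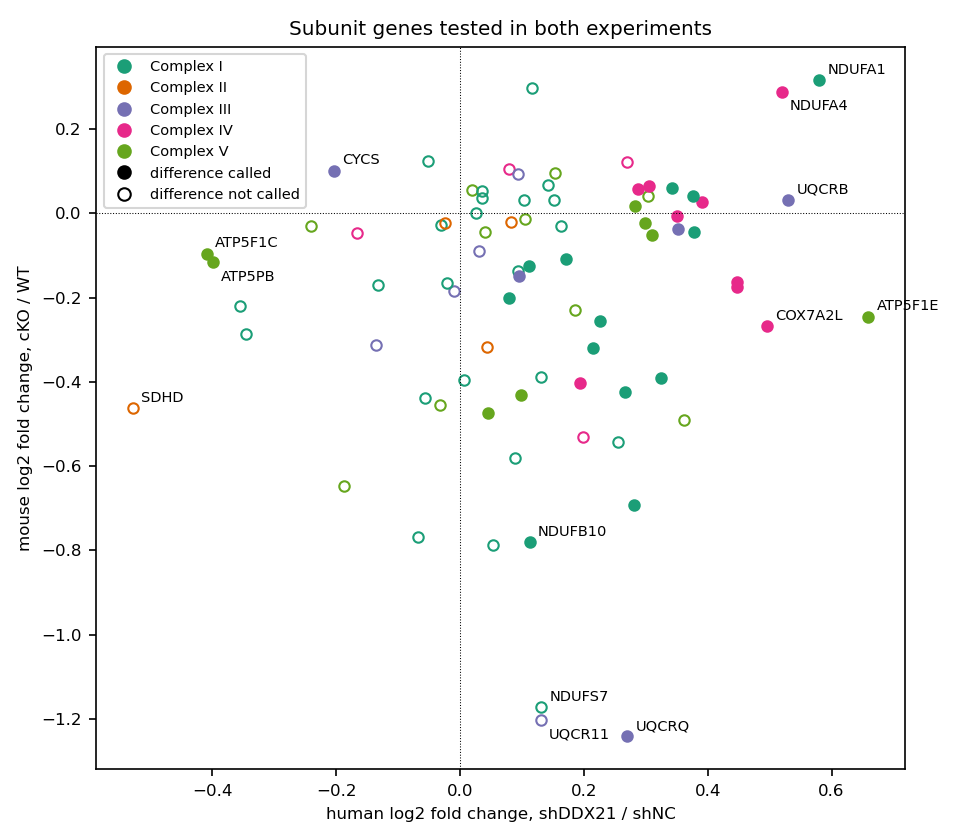
Log2 fold change in the mouse (vertical axis, cKO over WT) against that in the human cells (horizontal axis, shDDX21 over shNC) for the 81 members tested in both. Colours are complexes and filled points have a called difference between the effects; SDHD lies low in both, NDUFA1 and NDUFA4 high in both, and COX7A2L lies at -0.27 and 0.50.

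Levels per kilobase of exon placed ATP5F1B first in complex V in both species, at 393 ± 6.37 CPM per kilobase (SD, n = 3) in mouse WT and 429 ± 10.5 in human controls. In complex II the order differed. Sdhd was first in the mouse, at 251 ± 2.59 CPM per kilobase in WT and 182 ± 19.1 in cKO, above Sdha at 124 ± 1.73 in WT. In human controls SDHC was first, at 36.8 ± 0.599, with SDHD at 15.4 ± 0.714 and SDHA last at 1.41 ± 0.122. The deposited exon lengths cover all exons of a gene, so that a long rare exon lowers a gene's level on this scale. Human SDHA and SDHD also each share positions with 1 other annotated gene on the same strand. How reads shared between genes, or matching several places, were counted is not given in the sources used here. The part of this in the order of complex II was not tested.

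The wider mitochondrial gene lists are given as counts, beside which 20.7% of all mouse genes were higher and 15.8% lower, and 25.3% of all human genes higher and 27.4% lower. In the mouse, 22 of 77 mitochondrial ribosomal protein genes were called lower and none higher (median log2 fold change -0.14), with Mrpl14 lowest at -1.22, although only 4 to 7 were called when any of WT replicates 1 and 2 and cKO replicates 2 and 3 was left out. In the human cells 25 of 75 were lower and 14 higher (median -0.11), from MRPL50 at -1.49 to MRPL10 at 0.57. Of 21 genes of the citric acid cycle and pyruvate entry, 5 were lower and none higher in the mouse, led by citrate synthase (Cs, -0.23; 2 or 3 lower without WT replicate 1, WT replicate 2, cKO replicate 2 or cKO replicate 3, and 1 with total counts), and 12 were lower and 2 higher in the human cells, from pyruvate carboxylase (PC, -1.28) to the pyruvate carrier subunit MPC1 (0.49). Human CS rose (0.23), and its effects differed between the experiments by -0.45 (SE 0.040, adjusted p = 2.2e-06, interaction test). Of the respiratory assembly factors, 7 were higher and 7 lower of 55 in the mouse, a split that moved to 11 and 5 with total counts and 4 and 8 with DESeq2, and to 4 and 2 without WT replicate 1, 4 and 1 without WT replicate 2, 5 and 4 without cKO replicate 2 and 4 and 2 without cKO replicate 3. In the human cells 14 were higher and 14 lower of 58. NDUFAF6 rose (0.92) and NDUFAF4 fell (-0.79) among the human complex I factors, and mouse Tmem70, an ATP synthase assembly factor, rose by 0.46 while Uqcc2, which acts on complex III, fell by 0.87 on the log2 scale.

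Of the regulators of mitochondrial biogenesis and of mitochondrial DNA, 7 of 24 were lower and 2 higher in the mouse (5 and 3 with total counts), and Nrf1, the factor whose motif is named above, had the largest decrease (104 ± 6.71 to 77.2 ± 2.99 CPM, log2 fold change -0.44, adjusted p = 0.00123), while Hif1a rose (0.45). In the human cells 14 of 23 were lower and 3 higher, from MYC (-1.17) to the nuclear receptor ESRRA (0.57). NRF1 fell there as well, from 25.5 ± 0.907 to 18.8 ± 0.515 CPM (log2 fold change -0.45, adjusted p = 1.53e-07). Of the 30 import and carrier genes tested, 10 were lower and none higher in the mouse, led by Timm8a1 (-0.36), with 3 lower without WT replicate 1, 5 without WT replicate 2 and 4 without cKO replicate 3, and 12 were lower and 8 higher in the human cells, from TOMM70 (-1.06) to TOMM7 (0.44). Glycolysis genes, 27 tested in each, were 9 lower and 6 higher in the mouse, from Hk3 (-1.36) to the scarce Eno2 (2.02, 0.198 CPM in WT and 0.836 CPM in cKO; 5 lower and 3 higher without cKO replicate 3), and 14 lower and 10 higher in the human cells, from HK2 (-1.15) to PFKM (0.48). Eno2, near silence in WT, could pass the filter through cKO alone. With at least 10 counts required in every library, 26 glycolysis genes were tested in the mouse, 9 called lower and 5 higher. Of 13 genes of coenzyme Q synthesis, 3 were lower and none higher in the mouse, a count that was 0 with total counts and without WT replicate 1, WT replicate 2 or cKO replicate 3, and 3 moved each way in the human cells, where COQ10A rose most (0.46), and COQ7, the hydroxylase of its last steps, had the largest decrease in both (-0.30 and -0.57). Ndufab1, the acyl carrier protein that is also a complex I subunit and lies outside the naming rule, was not called in the mouse (0.09) and was called higher in the human cells (0.19, adjusted p = 0.00222).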

How the data were processed

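Polyadenylated RNA was sequenced in 12 libraries. Per the labels' protocols, an mRNA-enriched cDNA library was made from total RNA of sorted cells. Per the submitters' processing notes, STAR, featureCounts and DESeq2 were used with builds mm10 and hg38; versions, strand setting and the handling of multi-mapping reads are not given in the sources used here. The authors deposited whole-number counts per gene, the unit tested here. The normalized values deposited by the authors (unit: signal) equal the count divided by 1 constant per library, and the log2 ratios in the same deposited table are relative to the control mean; both were used for symbols only. Every column of per-sample values was assigned to its sample, but only the counts were tested.

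Counts were tested per experiment with edgeR 4.0.16 in R 4.3.3 (filterByExpr, TMM factors, quasi-likelihood test, two-sided, Benjamini-Hochberg over all genes tested), and the difference between experiments as an interaction over 12 libraries, which shares 1 spread between them. The SE was taken as the size of the log2 fold change divided by the root of its F statistic. The 1 identifier that the mouse table pairs with 3 symbols (Ndufb4, Ndufb4b, Ndufb4c) was counted once. NDUFA4 and NDUFA4L2 were placed in complex IV. Pseudogenes and antisense RNAs were left out of the mitochondrial ribosomal list after its matches were seen. Mouse GC content is from GENCODE M21 transcripts. The smallest two-sided p an exact permutation of 3 against 3 libraries allows is 0.1, which is why the model across all genes was used. Alternatives were other scalings, filters, DESeq2 1.42.0, a length or GC offset, a replicate block and leaving out libraries. The fits were tested on simulated data.

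Values in every library are given for the called member with the largest increase and decrease of each complex, for members called in both experiments and for paralogous subunits (for some of these as the mean or the share of the set); further members (among them Uqcrq, Uqcr11, Ndufs7, ATP5PB and COX4I1) were named after their values were seen. Of each pathway list, the called genes with the largest increase and decrease are named, with a few more chosen after their values were seen. The members and lists were chosen with earlier results of these data known.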

Additional observations from a re-analysis of the deposited data

Results flagged for a closer look

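For 35 subunit genes the effect in the mouse (cKO over WT) differed from that in the human cells (shDDX21 over shNC) by the interaction test of edgeR, at an adjusted p under 0.05. Values are the mouse log2 fold change minus the human one. In complex I they were -0.26 for NDUFA1, -0.97 for NDUFA2, -0.24 for NDUFA5, -0.33 for NDUFB1, -0.28 for NDUFB4, -0.42 for NDUFB5, -0.48 for NDUFB8, -0.89 for NDUFB10 and -0.71 for NDUFB11. The NDUFS and NDUFV genes of the same complex gave -0.28 for NDUFS3, -0.28 for NDUFS5, -0.69 for NDUFS8 and -0.53 for NDUFV1. In complex III they were 0.30 for CYCS, -0.49 for UQCRB, -0.24 for UQCRFS1, -0.39 for UQCRH and -1.51 for UQCRQ. In complex IV they were -0.24 for COX4I1, -0.23 for COX5A, -0.61 for COX5B, -0.36 for COX6B1, -0.36 for COX7A2, -0.76 for COX7A2L, -0.62 for COX7C, -0.59 for COX8A and -0.23 for NDUFA4. In complex V they were 0.32 for ATP5F1C, -0.90 for ATP5F1E, -0.52 for ATP5IF1, -0.53 for ATP5MC3, -0.32 for ATP5MG, -0.36 for ATP5MJ, 0.28 for ATP5PB and -0.26 for ATP5PD. The mouse groups overlap for 25 of the 35, UQCRQ and NDUFB10 among them, and are apart for 10. No offset for GC content was applied in the interaction fit.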

How the results depend on the processing

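The number of mouse members called lower (7) moved with most settings. It was 11 with RLE factors, 13 with no filter, 4 with at least 10 counts in every library, 12 with DESeq2, 15 with a replicate block, 22 with the GC offset and 27 without WT replicate 3 and cKO replicate 2, and leaving out 1 library gave 4 to 25. With a 2-fold change required as well, 1 mouse member stayed higher and 1 lower, and 0 human members higher and 0 lower. Upper-quartile factors gave 53 human members higher and a median of 0.18, and total counts gave a mouse median of -0.054. Mouse CYC1 changed sign with the GC offset (0.12). Of 616 values of named members under alternatives, 576 kept their direction and side of the threshold, 15 lost and 24 gained a call. Whether the replicate numbers pair the libraries is not stated in the labels. The correlations of same-numbered deviations were 0.449, -0.263 and 0.0389 in the mouse and -0.0178, -0.0014 and 0.0021 in the human experiment. Across numbers, WT replicate 3 and cKO replicate 2 gave 0.54. With so few libraries, whose deviations also followed GC content in the mouse, these values cannot settle pairing. The replicate block gave 4 mouse members higher and 15 lower, and 36 and 8 in the human cells. Depth limits the scarcest mouse members, Ndufa4l2 with at most 0.363 CPM in cKO and Cox7a1, whose fold change ran from -0.42 to 0.23 across alternatives.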
